A study of Homo sapiens with 16 samples.

Results

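Wild-type A549 cells, a human lung adenocarcinoma line, were compared between oncosphere culture and normal culture. The comparison used 4 of the 16 RNA sequencing libraries of the study and all 18227 genes of its tables, and nothing measured was used to choose them. The normal-culture group held 2 libraries of wild-type A549 cells grown for 3 days under normal conditions. The oncosphere group held 2 libraries of wild-type A549 cells grown for 7 days under conditions that the labels describe as enriching stem cells. Culture type and days in culture change together, so their effects cannot be told apart. The labels do not say what medium, substrate or serum each culture had, nor whether the 2 libraries of a group came from separate cultures, and p-values then measure only the spread between these libraries. The study also holds a clone of A549 cells labelled ZC3H12A knockout, wild-type H2023 cells (another human lung adenocarcinoma line) and a clone of H2023 cells labelled knockout, each with 2 libraries per culture under the same conditions and times. The response of the wild-type A549 cells was set against those of the A549 clone and of wild-type H2023 cells to see where it differed.

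Oncosphere culture grows tumour cells as floating clusters, usually in serum-free medium with growth factors, and is used to enrich for cells with stem-like properties. Cells that leave a stiff plastic surface lose spread actin fibres and the nuclear activity of YAP and TAZ, co-activators that read cell shape and density. Type I interferon signalling, in turn, acts on a short element in the promoters of antiviral genes. The RNase Regnase-1, which degrades mRNAs of inflammatory mediators, is the product of ZC3H12A.

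TPM is a length-normalised share of the transcripts in a library, scaled to a fixed total. The number of genes at 1 TPM or more ran from 13824 to 14508 over all libraries. Replicates of the wild-type A549 cells correlated across genes with r = 0.989 in normal and 0.987 in oncosphere culture on the log2(TPM + 1) scale, and libraries of different culture with r from 0.917 to 0.941. Mitochondrial genes took 11.8% and 16.01% of the TPM in normal culture and 20.4% and 23.3% in oncosphere culture, and the part of this share in the results below was not tested beyond the scaling alternatives given. MTAP, a gene in the chromosome 9 segment that A549 cells are known to have lost, was at 3.35 and 0.39 TPM in normal and at 0.48 and 3.64 TPM in oncosphere culture. The alveolar markers NAPSA, at 1.09 and 1.14 TPM, and LAMP3, at 0.13 and 0.16 TPM, were near 0 in normal culture. ABCA3, the other measured alveolar marker, was not, and held most of the 17.33 and 19.66 TPM summed over the measured markers. The surfactant genes were not analysed here.

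The gene targeted in the study's clones, ZC3H12A (ENSG00000163874, chromosome 1, 37474552 to 37484379 in GRCh38), was measured first. It was at 30.7 and 34.9 TPM in wild-type A549 cells in normal culture and at 48.5 and 49.2 TPM in oncosphere culture. The groups did not overlap, and the log2 difference was 0.56 (SE 0.12, limma, adjusted p = 0.00701), with an adjusted p of 0.0503 when normal-culture replicate 1 was left out. In the A549 libraries labelled knockout the gene was at 16.9 and 19.9 TPM in normal and at 60.2 and 55.6 TPM in oncosphere culture, so in oncosphere culture both of those libraries lay above both wild-type ones.

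The expression of 7392 of the 18227 genes (40.6%) differed between the cultures at an adjusted p under 0.05, and such genes are referred to as called. Of these, 3460 (19%) were higher and 3932 (21.6%) lower in oncosphere culture. A change of at least 2-fold on the log2(TPM + 1) scale was also present for 1604 (8.8%) of the genes called higher and for 1270 (6.97%) of those called lower, percentages being of all genes. The values of the groups did not overlap for 12989 genes (71.3%), with 33.7% of all genes higher and 37.5% lower in oncosphere culture. The median log2 difference over all genes was -0.01. Leaving out normal-culture replicate 1 reduced the called genes to 4924. Scaling by median ratios moved the median of all genes to 0.11 and gave 4647 higher against 2813 lower (62.3% higher in place of 46.8%), and TPM rescaled without mitochondrially encoded genes gave 4166 against 3081.

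**Figure D1:**
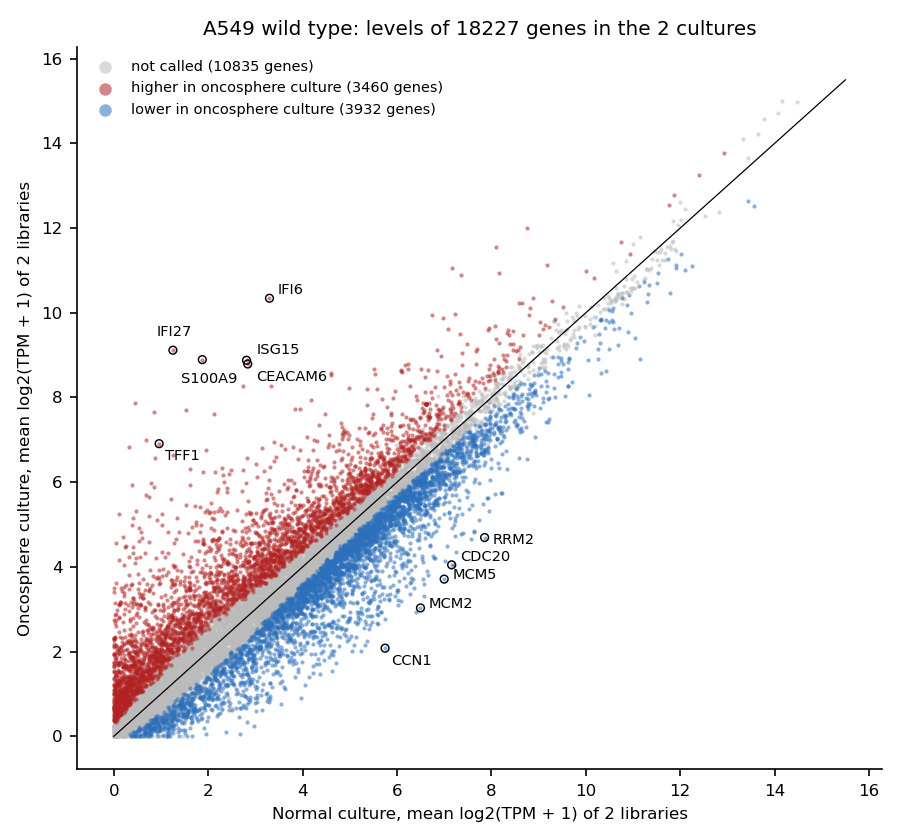
Mean log2(TPM + 1) of every gene in the 2 normal-culture libraries (horizontal axis) and the 2 oncosphere libraries (vertical axis) of wild-type A549 cells. Red points are genes called higher (3460) and blue points genes called lower (3932), and the genes farthest above the diagonal include IFI27, IFI6, S100A9 and TFF1.

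The largest rises belonged to interferon-induced genes and to genes of secretory epithelium. IFI27 (ENSG00000165949, chromosome 14, 94104836 to 94116698), an interferon-induced mitochondrial membrane protein, was at 1.40 and 1.36 TPM in normal culture and at 1162 and 264 TPM in oncosphere culture. IFITM1, which restricts virus entry, was at 0.36 and 0.38 TPM and then at 395 and 136 TPM. IFI6 was at 12.1 and 6.38 TPM and then at 2126 and 792 TPM, a log2 difference of 7.05 (SE 0.63, limma, adjusted p = 0.000146). For these 3 genes every oncosphere library was far above every normal-culture library, and replicate 1 of the oncosphere libraries held the higher level. The other 9 of the 12 largest rises were S100A9, CST1, DMBT1, TCN1, FCGBP, ISG15, CEACAM6, TFF1 and IFIT1. S100A9, a calcium-binding protein of inflamed epithelium and myeloid cells, rose from 1.05 and 5.55 to 512 and 439 TPM. TCN1, a secreted carrier of vitamin B12, rose from 0.50 and 0.69 to 161 and 98.8 TPM. In both genes the oncosphere libraries lay closer together than in the interferon-induced genes. IFITM1, CST1 and CEACAM6 belong to families of closely similar genes, so their levels are uncertain where reads could be shared with relatives.

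The 12 largest falls included CCN1, OLFML3, CDC20 and PKMYT1 beside genes that act in DNA replication. CCN1 (ENSG00000142871), a secreted matrix protein and the best-known YAP/TAZ target together with CCN2, fell from 59.2 and 46.9 TPM to 2.49 and 4.12 TPM, a log2 difference of -3.67 (SE 0.25, limma, adjusted p = 6.25e-05). MCM2, a subunit of the helicase that opens DNA for replication, fell from 91.0 and 87.6 to 6.21 and 8.25 TPM. Both libraries of a culture gave nearly the same value for MCM2, and the groups were far apart. The other 10 largest falls were PKMYT1, MCM5, OLFML3, MCM10, CDT1, RRM2, CDC20, DTL, CLSPN and GINS2. RRM2, the regulated subunit of the enzyme that makes deoxynucleotides, fell from 254 and 210 to 22.6 and 27.4 TPM. OLFML3, a secreted olfactomedin-like protein, fell from 131 and 67.3 to 6.80 and 11.5 TPM. All 24 genes kept their call and direction under every alternative setting tried, including each library left out in turn.

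**Figure D2:**
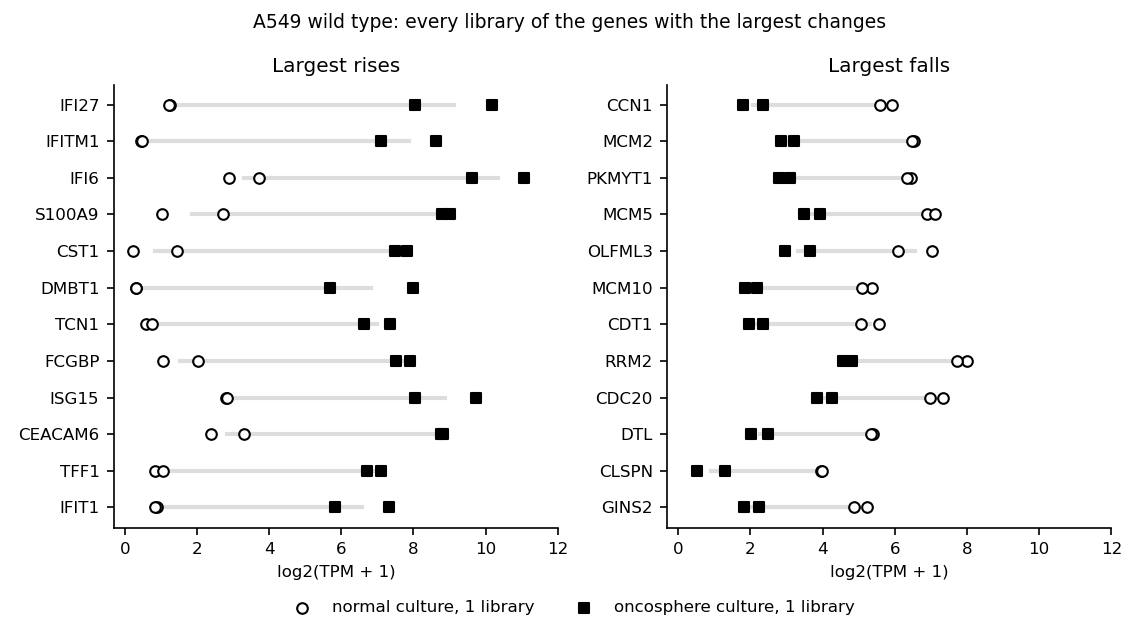
Level of each of the 12 genes with the largest rise (left) and the 12 with the largest fall (right) in every wild-type A549 library, as log2(TPM + 1). Open circles are the 2 normal-culture libraries and filled squares the 2 oncosphere libraries, and the squares lie apart from the circles for all 24 genes.

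Genes of the G1/S and G2/M phases of the cell cycle fell without exception in the lists used. All 30 genes of the G1/S transition and DNA replication were called lower, with a median log2 difference of -2.63, and all 30 genes of G2/M and mitosis were called lower, with a median of -2.33, against 21.6% of all genes called lower. Their medians over genes went from 69.7 and 58.7 TPM to 9.31 and 10.7 TPM for G1/S genes. All 60 stayed called lower without each library in turn. MKI67, the nuclear antigen used to score proliferation, was at 79.8 and 72.2 TPM in normal and at 10.2 and 12.5 TPM in oncosphere culture, a log2 difference of -2.65 (SE 0.14, limma, adjusted p = 3.86e-05). E2F1, a transcription factor of G1/S genes, went from 37.9 and 41.2 to 4.05 and 6.80 TPM. TOP2A, which untangles chromosomes, went from 199 and 197 to 26.9 and 28.8 TPM. PCNA, the sliding clamp of DNA polymerase, remained abundant, with 533 and 666 TPM in normal and 209 and 303 TPM in oncosphere culture. Among 5 inhibitors of cyclin-dependent kinases 2 were called higher and none lower, and 1 was called higher in the 3 fits without normal-culture replicate 1, oncosphere replicate 1 or oncosphere replicate 2. CDKN1A (p21) rose from 42.9 and 25.8 to 102 and 66.9 TPM. CDKN1B (p27) rose by 0.62 on the log2 scale and had adjusted p-values of 0.055 to 0.0897 in those 3 fits.

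Genes that interferon induces rose as a block. Of 31 effectors, 30 were called higher and none lower, with a median log2 difference of 3.22, against 19% of all genes called higher. The exception was EPSTI1, at 0.22 and 0.19 TPM in normal and 1.04 and 0.26 TPM in oncosphere culture. The median over the 31 effectors was 1.00 and 0.79 TPM in normal culture, 74.9 TPM in oncosphere replicate 1 and 22.5 TPM in oncosphere replicate 2. The size of the rise therefore depended on the library: without oncosphere replicate 1 the median log2 difference was 2.49 with 29 effectors called higher, and without oncosphere replicate 2 it was 4.09 with 31. MX1, a GTPase that blocks viral replication, was at 1.00 and 0.47 TPM and then at 99.4 and 38.5 TPM. ISG15, a ubiquitin-like modifier, was at 5.94 and 6.09 TPM and then at 843 and 261 TPM. OAS1, which makes the second messenger that activates RNase L, started from 61.3 and 73.1 TPM and reached 440 and 349 TPM. The oncosphere libraries differed less for OAS1 than for MX1 and ISG15. All 9 sensors and signalling genes were called higher as well, with a median of 2.61. IRF7, the factor that amplifies interferon production, rose from 4.52 and 4.38 to 102 and 50.8 TPM. The RNA sensor IFIH1 rose from 1.03 and 1.24 to 29.2 and 10.6 TPM.

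The promoters of the leading interferon effectors are shown because the element through which interferon acts can be read in them. Windows of RefSeq (GRCh38.p14) around each gene's start were searched on both strands for the interferon-stimulated response element, GAAA and GAAA with any 2 bases between them, with overlapping matches counted. The element was held by 3.65% of 27305 windows, by 2.89% of the 12438 windows of genes in the tables and by 17 of the 25 effectors with a window (68%). None of the 25 G1/S genes with a window held it. A match describes the letters in the window and no binding. The stretches below lie upstream of the annotated start and keep some sequence on either side of the matches, which are in capitals.
IFI27 (chr14:94110558-94110720, + strand): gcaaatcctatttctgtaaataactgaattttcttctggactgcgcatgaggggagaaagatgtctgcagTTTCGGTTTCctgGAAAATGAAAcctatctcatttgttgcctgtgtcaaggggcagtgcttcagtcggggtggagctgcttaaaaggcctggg
IFITM1 (chr11:313930-314039, + strand): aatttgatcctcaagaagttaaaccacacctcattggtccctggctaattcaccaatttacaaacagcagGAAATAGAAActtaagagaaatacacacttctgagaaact
IFI6 (chr1:27672206-27672418, - strand): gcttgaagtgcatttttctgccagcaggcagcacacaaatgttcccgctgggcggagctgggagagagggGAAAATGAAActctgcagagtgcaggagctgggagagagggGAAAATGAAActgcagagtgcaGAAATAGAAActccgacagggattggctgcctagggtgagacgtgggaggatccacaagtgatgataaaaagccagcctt
ISG15 (chr1:1013314-1013469, + strand): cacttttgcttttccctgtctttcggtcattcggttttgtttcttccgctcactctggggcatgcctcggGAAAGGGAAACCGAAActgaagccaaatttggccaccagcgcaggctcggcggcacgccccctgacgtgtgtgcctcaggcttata
IFI27 holds 2 matches, on opposite strands, IFI6 holds 3, and the 2 matches of ISG15 overlap.

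The promoters of genes of DNA replication were searched in the same way for the E2F element as TTTCCCGC or TTTGGCGC. It was held by 2.31% of all windows, by 3.49% of the windows of genes in the tables, by 14 of the 25 G1/S genes with a window (56%) and by 2 of the 25 G2/M genes with a window. The genes shown were picked from the largest falls because they hold a match, while MCM2, MCM10, RRM2 and CDC20 hold none in their windows. For CDT1, which licenses replication origins, DTL, which targets CDT1 for destruction, and GINS2, a subunit of the replicative helicase, capitals again mark the matches upstream of the start.
CDT1 (chr16:88803684-88803788, + strand): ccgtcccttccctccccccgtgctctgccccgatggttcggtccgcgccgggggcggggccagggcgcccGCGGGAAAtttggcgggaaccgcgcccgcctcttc
DTL (chr1:212035670-212035747, + strand): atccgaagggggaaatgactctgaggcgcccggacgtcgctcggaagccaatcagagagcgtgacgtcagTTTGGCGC
GINS2 (chr16:85688955-85689055, - strand): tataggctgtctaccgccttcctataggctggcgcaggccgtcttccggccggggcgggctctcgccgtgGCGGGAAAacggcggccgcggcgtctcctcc
CDT1 fell from 46.3 and 32.8 TPM to 2.86 and 4.13 TPM, DTL from 40.9 and 39.4 to 4.63 and 3.05 TPM, and GINS2 from 36.6 and 28.4 to 2.50 and 3.71 TPM. For each of the 3 genes both oncosphere libraries were below both normal-culture libraries.

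Antigen presentation by MHC class I moved the same way as the interferon-induced genes. All 6 measured chains were called higher, with a median log2 difference of 2.32. Of 8 genes of peptide processing 4 were called higher and none lower, against 19% and 21.6% of all genes. HLA-B rose from 15.8 and 11.1 to 315 and 139 TPM. B2M, the invariant light chain, rose from 658 and 511 to 3047 and 1652 TPM. Oncosphere replicate 1 was again the higher library for both genes. The immunoproteasome subunit PSMB8 rose from 28.4 and 18.9 to 90.4 and 51.9 TPM. Reads of HLA genes can be shared among them, so the level of HLA-B is uncertain.

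Cytokines and chemokines mostly had higher values in oncosphere culture, but few were called. Of 13 such genes 11 had a positive difference, and the median log2 difference was 0.63. For 10 both oncosphere libraries lay above both normal-culture libraries, a pattern that 33.7% of all genes showed. Of the 13 cytokines and chemokines 3 were called higher and 2 lower, against 19% and 21.6% of all genes. Without either normal-culture library there were 1 and none, without oncosphere replicate 1 there were 1 and 1, and without oncosphere replicate 2 there were 2 and 1. Of 7 members and inhibitors of the NF-kB pathway 1, ZC3H12A, was called higher, and none without normal-culture replicate 1. IL1B rose from 0.39 and 0.00 to 4.68 and 3.60 TPM. PTGS2, the inducible cyclooxygenase, rose from 79.8 and 115 to 320 and 240 TPM. IL11 fell from 11.7 and 12.4 to 0.97 and 4.86 TPM, with an adjusted p of up to 0.0744 when 1 library was left out. IL6 had a log2 difference of 0.49 and CXCL8 of 1.16, and neither was called. The chemokine CXCL1 was abundant in both cultures, at 348 and 427 TPM in normal and 560 and 441 TPM in oncosphere culture, and was not called.

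Genes of plasma-type secreted proteins rose. Of 12 acute-phase and complement genes 10 were called higher and none lower, with a median log2 difference of 3.11. All 7 clotting factors were called higher, with a median of 2.54. The shares of all genes called higher and lower were 19% and 21.6%. SERPINA3, an inhibitor of neutrophil proteases, rose from 3.06 and 3.62 to 275 and 136 TPM. SERPINA1, alpha-1 antitrypsin, rose from 0.69 and 0.93 to 70.4 and 48.2 TPM. CFI, which inactivates complement C3b, rose from 0.69 and 2.39 to 126 and 77.5 TPM. The groups were far apart for all 3. The not called genes were the near-identical SAA1 and SAA2, with log2 differences of -0.09 and 0.03. FGG, a fibrinogen chain, was at 5.27 and 92.1 TPM in normal and at 329 and 414 TPM in oncosphere culture, so its normal-culture libraries differed widely, and its adjusted p was 0.0553 without oncosphere replicate 1 and 0.0673 without oncosphere replicate 2. In those same fits 4 clotting factors were called.

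Markers of airway secretory and mucous cells rose in all 10 measured genes, with a median log2 difference of 3.08, and all 10 stayed called higher without each library in turn. MUC5AC, a gel-forming mucin, went from 4.97 and 6.54 to 249 and 378 TPM. TFF1, a small peptide secreted with mucins, went from 0.80 and 1.10 to 136 and 105 TPM, a log2 difference of 5.95 (SE 0.21, limma, adjusted p = 3.32e-05). AGR2, an ER protein needed for mucin folding, was already at 249 and 295 TPM in normal culture and reached 2782 and 3197 TPM. These genes thus covered both near-silent and abundant starting levels. Of 8 endoderm transcription factors 4 were called higher and none lower, against 19% and 21.6% of all genes. SOX9, a factor of the embryonic distal lung, rose from 3.09 and 3.69 to 45.1 and 31.9 TPM, and FOXA1 from 2.79 and 6.41 to 14.6 and 18.4 TPM. The 3 measured alveolar type II markers were called higher, and NAPSA stayed low at 3.38 and 3.53 TPM and LAMP3 at 3.21 and 1.28 TPM in oncosphere culture. The lipid transporter ABCA3 went from 16.1 and 18.4 to 27.6 and 28.7 TPM, with adjusted p-values from 0.0685 to 0.109 in 3 of the 4 fits with a library left out.

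Epithelial junction genes rose more often than they fell. Of 16 such genes 11 were called higher and 2, CLDN1 and TJP1, lower, with a median log2 difference of 1.14. The shares of all genes called higher and lower were 19% and 21.6%. CLDN2, a cation-channel claudin, rose from 36.3 and 54.9 to 448 and 374 TPM. CLDN7 rose from 0.87 and 0.93 to 16.4 and 9.72 TPM, and KRT19 from 6.11 and 8.33 to 46.8 and 101 TPM. The epithelial cadherin CDH1 went from 34.7 and 52.1 to 73.1 and 62.4 TPM, a log2 difference of 0.66 (SE 0.19, limma, adjusted p = 0.024), with an adjusted p of 0.124 without normal-culture replicate 1 or without oncosphere replicate 1. CLDN1 had an adjusted p of 0.0651 without normal-culture replicate 1 and 0.0672 without oncosphere replicate 2. Mesenchymal genes were split, with 3 of 10 higher and 5 lower, and 2 lower without normal-culture replicate 1. The intermediate filament VIM fell from 798 and 634 to 368 and 403 TPM. The mesenchymal cadherin CDH2 went from 6.96 and 6.43 to 3.60 and 2.74 TPM, with an adjusted p of 0.0514 without normal-culture replicate 1. FN1, fibronectin, went the other way, from 63.7 and 78.5 to 485 and 391 TPM. Among 6 transcription factors of the epithelial-mesenchymal transition only ZEB1 was called, with a log2 difference of -0.66 that was not called under median-ratio scaling (adjusted p = 0.0596), without normal-culture replicate 1 (0.0838) or without oncosphere replicate 1 (0.0912).

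YAP/TAZ-TEAD targets and genes of the actin cytoskeleton were called lower more often than higher. Genes of matrix and adhesion were split, with 11 of 37 called higher and 11 lower, against 19% and 21.6% of all genes. Of 22 YAP/TAZ-TEAD targets 13 were called lower and 2 higher, with a median log2 difference of -0.88. AMOTL2, a feedback inhibitor of YAP, fell from 51.3 and 44.1 to 5.47 and 5.17 TPM. ANKRD1 fell from 5.25 and 3.33 to 0.00 and 0.14 TPM. CCN2 did not follow CCN1: it was at 15.7 and 13.5 TPM in normal and at 24.3 and 23.1 TPM in oncosphere culture, and was not called. IGFBP3, a secreted carrier of insulin-like growth factors, rose from 106 and 253 to 1884 and 1911 TPM, and the ectonucleotidase NT5E rose by 1.91 on the log2 scale. Of 15 genes of the actin cytoskeleton 10 were called lower and 1, CALD1, higher. Without normal-culture replicate 1 there were 6 and none, and without oncosphere replicate 1 there were 7 and none. ACTB, cytoplasmic actin, fell from 4803 and 4877 to 2232 and 2151 TPM. The non-muscle myosin MYH9 fell from 182 and 148 to 62.8 and 75.7 TPM. Of 15 basement membrane and matrix genes 9 were called lower and 2 higher. LAMB3, a laminin chain of epithelial basement membrane, rose from 16.6 and 14.1 to 79.7 and 59.8 TPM, while THBS1 fell from 18.8 and 17.5 to 3.24 and 5.20 TPM. Of 13 integrin subunits 6 were called higher and none lower, but 1 without normal-culture replicate 2 and none without oncosphere replicate 1.

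Of 16 measured stem cell markers 1 was called higher and 4 lower, against 19% and 21.6% of all genes. The direction of the calls depended on the scaling. Of 7 measured pluripotency and reprogramming factors 2 were called lower and none higher, although the median log2 difference was 0.32. MYC fell from 122 and 95.1 to 42.6 and 40.8 TPM, and the chromatin repressor BMI1 from 46.1 and 45.1 to 27.8 and 24.1 TPM. SOX2 was at 3.07 and 3.70 TPM in normal and at 5.14 and 3.86 TPM in oncosphere culture and was not called. POU5F1 was at 1.58 and 3.18 TPM and then at 4.16 and 5.36 TPM, with an adjusted p of 0.0569. Under median-ratio scaling 3 of the 7 were called higher. Of 9 surface markers, transporters and enzymes 1 was called higher and 2 lower, against 3 and 1 under median-ratio scaling, 2 and 2 for TPM without mitochondrially encoded genes and 1 and 3 under quantile normalization. It was 1 and 1 without normal-culture replicate 1 or oncosphere replicate 1. CD44, a hyaluronan receptor, rose from 347 and 296 to 547 and 481 TPM. ALDH1A1, the aldehyde dehydrogenase used to sort stem-like lung tumour cells, was at 3790 and 4150 TPM in normal and 4290 and 4389 TPM in oncosphere culture and was not called. ALDH1A3 fell from 6.87 and 5.98 to 0.80 and 2.16 TPM. The drug transporter ABCG2 had a log2 difference of -0.89, not called without normal-culture replicate 1 (adjusted p = 0.18), without oncosphere replicate 1 (0.157) or under median-ratio scaling (0.0696).

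**Figure D3:**
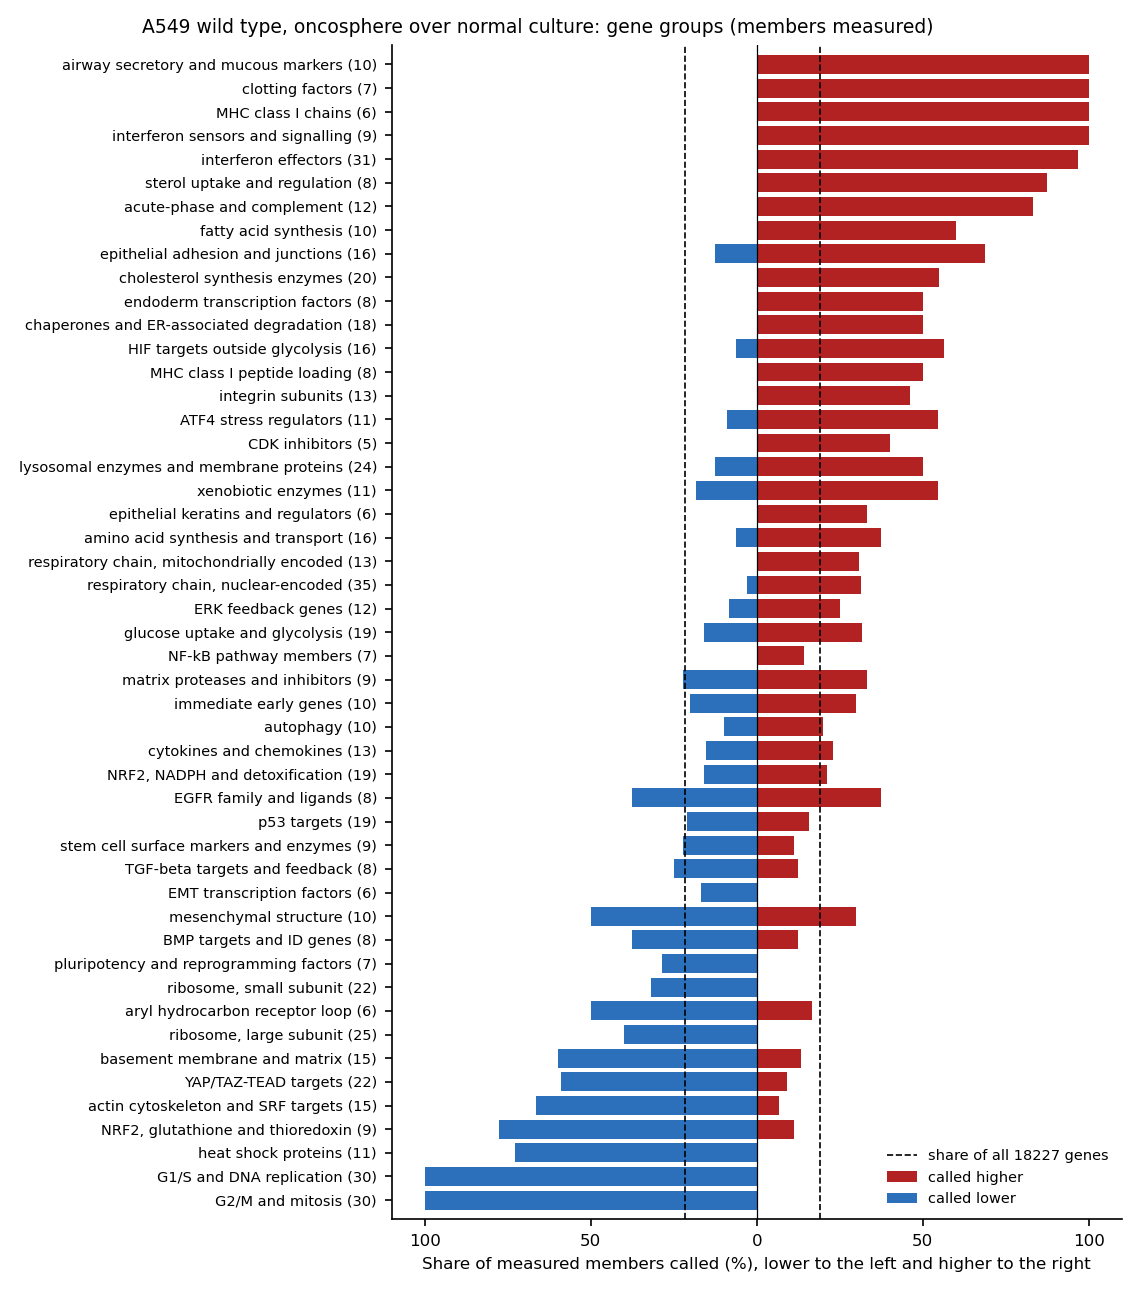
Share of the measured members of each gene group called higher (red, to the right) or lower (blue, to the left) in oncosphere culture of wild-type A549 cells, for groups with at least 5 measured genes. Dashed lines are the shares of all 18227 genes called higher (19%) and lower (21.6%), and cell cycle groups lie at the bottom while interferon and secretory groups lie at the top.

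Of 38 genes of sterol and fatty acid synthesis 24 were called higher and none lower, against 19% and 21.6% of all genes. Of 20 cholesterol synthesis enzymes 11 were called higher and none lower, with a median log2 difference of 0.99, and 19 were called higher without oncosphere replicate 1. HMGCS1 was at 78.9 and 77.9 TPM in normal and at 92.9 and 176 TPM in oncosphere culture, and was not called (adjusted p = 0.0738). Oncosphere replicate 2 held the higher level for HMGCS1. Of 8 genes of sterol uptake and regulation 7 were called higher and none lower. ABCG1, a sterol exporter and target of LXR, rose from 0.73 and 2.69 to 14.7 and 13.6 TPM. Of 10 fatty acid synthesis genes 6 were called higher, among them the desaturase SCD, which rose from 93.9 and 236 to 862 and 1182 TPM.

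Targets of hypoxia-inducible factor outside glycolysis were called higher in 9 of 16 genes and lower in 1, ADM, with a median log2 difference of 0.66. CA9 (ENSG00000107159, chromosome 9, 35673856 to 35681159), a membrane carbonic anhydrase and standard marker of hypoxia, rose from 3.11 and 4.87 to 82.9 and 77.0 TPM. NDRG1 rose from 18.7 and 27.5 to 79.5 and 178 TPM, and EGLN3, a prolyl hydroxylase that marks HIF for destruction, from 7.06 and 7.55 to 26.2 and 34.8 TPM. VEGFA went from 41.0 and 40.0 to 79.0 and 53.6 TPM and had adjusted p-values of 0.116 and 0.118 without either normal-culture library and 0.202 without oncosphere replicate 1. In glucose uptake and glycolysis 6 of 19 genes were called higher and 3 lower, with a median of -0.23, and 3 were called higher without either normal-culture library. Of all genes 19% were called higher and 21.6% lower. ALDOC rose from 1.55 and 2.93 to 22.6 and 38.7 TPM. The lactate exporter SLC16A3 rose from 6.20 and 10.98 to 34.4 and 64.2 TPM. PFKFB3, which makes the activator of phosphofructokinase, fell from 211 and 183 to 22.8 and 33.0 TPM. The glucose transporter SLC2A1 was at 55.2 and 36.9 TPM and then at 59.9 and 51.6 TPM, and was not called.

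Redox genes under NRF2, which A549 cells are known to run at a high level through a KEAP1 mutation, were mixed. Of 9 genes of the glutathione and thioredoxin systems 7 were called lower and 1 higher. GCLC, which starts glutathione synthesis, fell from 204 and 120 to 65.5 and 55.8 TPM. TXNRD1, thioredoxin reductase, fell from 874 and 702 to 295 and 321 TPM. GPX2, an epithelial glutathione peroxidase, rose from 270 and 301 to 2201 and 1745 TPM, a log2 difference of 2.78 (SE 0.13, limma, adjusted p = 3.32e-05). Of 19 genes of NADPH supply and detoxification 4 were called higher and 3 lower, against 19% and 21.6% of all genes, and 2 were called higher without oncosphere replicate 1. HMOX1 fell from 74.2 and 161 to 30.0 and 37.2 TPM, while AKR1C1 rose from 371 and 427 to 1131 and 1252 TPM. Its family member AKR1C2 was at 4299 and 4032 TPM and then at 4580 and 4832 TPM, and was not called. The level of AKR1C1 is uncertain where reads could be shared with AKR1C2. Among 11 other xenobiotic enzymes 6 were called higher and 2 lower, with CYP3A5 rising from 4.29 and 3.01 to 64.2 and 48.5 TPM.

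Genes of the stress responses did not share a direction. Of 18 chaperones and degradation factors of the endoplasmic reticulum 9 were called higher and none lower, against 19% and 21.6% of all genes. DNAJB9 rose from 11.9 and 13.2 to 71.6 and 59.4 TPM, and XBP1, the transcription factor of secretory cells, from 85.3 and 106 to 353 and 357 TPM. HSPA5 (BiP), the main chaperone there, was at 258 and 285 TPM and then at 282 and 320 TPM, and was not called. Of 11 cytosolic and mitochondrial heat shock genes 8 were called lower and none higher. HSP90AA1 fell from 1680 and 1113 to 322 and 482 TPM, and HSPA8 from 1973 and 1362 to 456 and 789 TPM. HSPA1A and HSPA1B, which are nearly identical, were not called. Of 11 stress regulators under ATF4 6 were called higher and 1 lower, including TRIB3, which rose from 47.4 and 53.8 to 301 and 204 TPM, and DDIT4, an inhibitor of mTORC1, which rose from 123 and 207 to 695 and 748 TPM. Amino acid genes depended on the library: 6 of 16 were called higher and 1 lower, against 11 and 1 without oncosphere replicate 2, 4 and 5 without oncosphere replicate 1 and 3 and 1 without normal-culture replicate 1.

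All 13 mitochondrially encoded subunits of the respiratory chain had higher values in both oncosphere libraries than in both normal-culture libraries, a pattern that 33.7% of all genes showed, and 4 were called higher. The median log2 difference was 0.77. None was called without normal-culture replicate 1 or without oncosphere replicate 2, and 9 were called under median-ratio scaling. MT-CYB was at 3300 and 4212 TPM and then at 6755 and 7254 TPM. Of 35 nuclear-encoded subunits 11 were called higher and 1 lower, 22 and none under median-ratio scaling, and 5 and none without normal-culture replicate 1. Cytosolic ribosomal proteins were called lower in 10 of 25 genes of the large subunit, with a median of -0.39, and in 7 of 22 of the small subunit, with a median of -0.41, and no gene was called higher. Under median-ratio scaling the calls fell to 3 and 2, and without normal-culture replicate 1 to 1 and 1. RPS2 fell from 4172 and 3544 to 2124 and 2118 TPM. Of all genes 19% were called higher and 21.6% lower.

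Among growth factor signalling genes, immediate early genes and the EGFR family were split, while most ERK feedback genes had higher values. FOS rose from 3.71 and 2.97 to 32.4 and 35.8 TPM, while FOSL1 fell from 66.6 and 25.4 to 5.26 and 4.40 TPM and JUN from 20.1 and 15.4 to 4.27 and 2.90 TPM. Among 10 immediate early genes 3 were called higher and 2 lower, against 19% and 21.6% of all genes. Of 12 ERK feedback genes 3 were called higher and 1 lower, with a median log2 difference of 0.40. For 9 both oncosphere libraries lay above both normal-culture libraries, a pattern that 33.7% of all genes showed. Under each of the scaling alternatives 6 were called higher and 1 lower. DUSP6, an ERK phosphatase that ERK signalling induces, rose from 7.00 and 7.47 to 27.4 and 25.8 TPM. ERBB3, the kinase-impaired receptor for neuregulin, rose from 4.19 and 8.64 to 104 and 84.1 TPM. Of the 8 EGFR family members and ligands 3 were called higher and 3 (AREG, EREG and EGFR) lower, against the same shares of all genes. None was called lower without normal-culture replicate 1, and 1 was without either oncosphere library or under median-ratio scaling. Of 8 BMP targets and ID genes 1 was called higher and 3 lower, against 19% and 21.6% of all genes. BAMBI, a decoy receptor that BMP signalling induces, rose by 1.68 on the log2 scale, and 2 were called higher without normal-culture replicate 2. ID2 and ID3, which block differentiation factors, fell by 1.55 and 1.42. Of 24 lysosomal genes 12 were called higher and 3 lower, among them CTSL, which rose from 210 and 203 to 698 and 452 TPM. Of 19 p53 targets 3 were called higher and 4 lower, near the 19% and 21.6% of all genes, a split that median-ratio scaling turned to 8 and 1 and TPM without mitochondrially encoded genes to 7 and 3. It was 3 and 1 without normal-culture replicate 1 or oncosphere replicate 2, 1 and 3 without normal-culture replicate 2 and 1 and 4 without oncosphere replicate 1.

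Markers of other cell types were looked at because some rose. LYZ, lysozyme, which airway gland cells also make, was at 0.00 and 0.05 TPM in normal and at 18.6 and 6.81 TPM in oncosphere culture. CD14 went from 13.1 and 8.17 to 47.6 and 26.8 TPM and PECAM1 from 0.04 and 0.10 to 2.76 and 1.77 TPM. Of the 7 measured markers of fibroblasts, blood cells and endothelium 4 were called higher and none lower, the other being LUM, at 3.53 and 1.07 TPM in oncosphere culture and not called without normal-culture replicate 2 (adjusted p = 0.0546). COL1A1 was at 2.14 and 3.19 TPM in normal and 2.17 and 4.22 TPM in oncosphere culture. The remaining markers of the lists were not analysed here, and the part of such cells in the results was not tested.

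The culture response of wild-type A549 cells was set against that of the A549 clone labelled knockout. In that clone 3784 genes (20.8%) were called between the cultures, 10.9% of all genes higher and 9.87% lower. The 2 responses share no library, and across 14455 genes of at least 1 TPM their log2 differences correlated with r = 0.679, a description across genes, which are not independent replicates. Both cells called 2684 genes in the same direction, 36.3% of those called in wild type and 70.9% of those called in the clone, and 62 in opposite directions. The difference between the responses was called for 1212 genes (6.65%), 570 (3.13%) with the more positive response in wild type and 642 (3.52%) with the more negative. It was called for 170 without normal-culture replicate 1, 476 without oncosphere replicate 1 and 731 without normal-culture replicate 2. Under median-ratio scaling 67.3% of the called differences were more positive in wild type in place of 47%. The clone is a single one, so the edit and anything else that sets the clone apart cannot be told apart.

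Of the 16 HIF targets outside glycolysis 5 were called higher in wild type and lower in the clone, among them CA9, EGLN3, NDRG1 and VEGFA, and none the other way round. CA9 was at 29.6 and 57.5 TPM in normal culture and at 3.49 and 1.03 TPM in oncosphere culture of the clone, the reverse of its order in wild type, and the responses differed by 7.85 on the log2 scale (SE 0.58, limma, adjusted p = 0.00279). NDRG1 was at 134 and 148 TPM and then at 14.6 and 13.3 TPM in the clone, a difference between responses of 5.59 (SE 0.47, limma, adjusted p = 0.00291). The responses of 8 of the 16 targets differed, all more positive in wild type, and 3 did without normal-culture replicate 1. In the clone 8 of the 16 fell and 1 rose. TFF1 stayed at 0.37 and 0.58 TPM in normal and 0.41 and 0.63 TPM in oncosphere culture of the clone. TF, the iron carrier transferrin, rose from 0.01 and 0.88 to 38.9 and 39.4 TPM in wild type and was at 0.14 TPM or less in all 4 clone libraries. IFI27 reached 18.0 and 1.07 TPM in oncosphere culture of the clone, and its difference between responses of 6.35 had an adjusted p of 0.0387, and of 0.119, 0.081 and 0.0987 without normal-culture replicate 1, normal-culture replicate 2 and oncosphere replicate 1. Among the 31 interferon effectors 11 were called higher in the clone, with a median log2 difference of 0.81, and 15 differed between the responses, all more positive in wild type. None of the 31 differed without normal-culture replicate 1, 1 without normal-culture replicate 2, 8 without oncosphere replicate 1 and 26 without oncosphere replicate 2.

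On the other side, some genes rose in the clone and not in wild type. SCG2, a granin of secretory granules, was at 0.32 and 0.18 TPM in normal and 0.97 and 0.83 TPM in oncosphere culture of wild type, and at 0.65 and 0.94 TPM and then 35.6 and 67.0 TPM in the clone. SFRP5, a secreted WNT inhibitor, was at 0.90 and 0.35 TPM and then 0.09 and 0.11 TPM in wild type, and at 0.36 and 0.28 TPM and then 16.6 and 7.53 TPM in the clone. The chemokine CXCL1 was at 17.2 and 9.73 TPM and then at 392 and 127 TPM in the clone, and in each culture both clone libraries lay below both wild-type ones. Its difference between responses of -3.64 (adjusted p = 0.0245) had adjusted p-values from 0.0566 to 0.08 with each library left out. CCL2, another chemokine, went from 168 and 163 to 105 and 72.8 TPM in wild type and from 25.6 and 14.3 to 105 and 77.2 TPM in the clone. OLFML3 was at 25.5 and 30.4 TPM and then at 39.6 and 17.2 TPM in the clone. The G1/S genes fell in both, with 27 of 30 called lower in the clone and a median of -1.42, and 16 of the 30 had a more negative response in wild type, against 2 without normal-culture replicate 1 and 7 without oncosphere replicate 1.

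Wild-type H2023 cells gave a further response to set beside it. In H2023, 3901 genes (21.4%) were called between the cultures, 3.96% of all genes higher and 17.4% lower, and 2555 of them were called in the same direction in A549, 34.6% of the A549 calls and 65.5% of the H2023 calls, with 118 called in opposite directions. The log2 differences correlated with r = 0.608 across 14745 genes. The difference between the responses was called for 1327 genes (7.28%), 986 (5.41%) more positive and 341 (1.87%) more negative in A549. It was called for 176 without A549 normal-culture replicate 1, 302 without oncosphere replicate 1 and 573 without normal-culture replicate 2. The share more positive in A549 was 74.3%, and 50.4% under quantile normalization, 62.1% under median-ratio scaling and 62.8% for TPM without mitochondrially encoded genes.

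**Figure D4:**
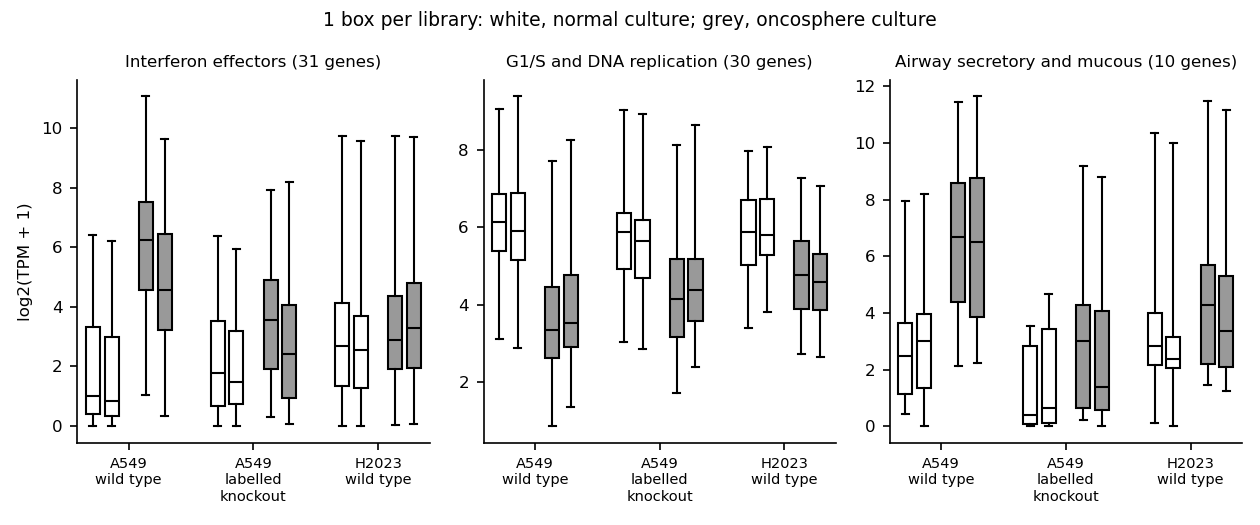
Distribution over genes of log2(TPM + 1) in each library for interferon effectors (31 genes), G1/S and DNA replication genes (30) and airway secretory and mucous markers (10). Boxes span the quartiles with the median as a line and whiskers reach the lowest and highest gene, white for normal and grey for oncosphere culture, and the interferon effectors stand highest above their normal-culture level in wild-type A549 cells.

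The G1/S genes fell in both lines, with 28 of 30 G1/S genes called lower in H2023 and a median log2 difference of -1.20, and 20 of the 30 had a more negative response in A549, against 3 and 13 without A549 normal-culture replicates 1 and 2 and 5 without oncosphere replicate 1. MKI67 went from 81.4 and 76.0 to 24.7 and 24.0 TPM in H2023. The interferon effectors were called higher in 4 and lower in 1 of 31 genes in H2023, with a median of 0.58, and 23 differed between the lines, all more positive in A549. That number was 4 without A549 normal-culture replicate 1, 9 without normal-culture replicate 2 and 15 without oncosphere replicate 1. IFITM1 was at 1.43 and 0.27 TPM and then at 2.77 and 2.05 TPM in H2023. CST1, a secreted cysteine protease inhibitor, was listed at 0.00 and 0.00 TPM and then at 0.12 and 0.25 TPM there, against 0.17 and 1.74 TPM and then 225 and 178 TPM in A549. TFF1 was at 2.84 and 2.95 TPM and then at 2.23 and 1.39 TPM in H2023. TCN1 stayed at or below 0.76 TPM in all 4 H2023 libraries. All 4 genes were at or below 2.95 TPM in normal culture of both lines.

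Cholesterol synthesis enzymes had a larger median log2 difference in H2023 than in A549. It was 0.99 in A549, and 0.71 to 1.34 with an A549 library left out. The numbers of calls in the lines came from different fits. HMGCS1, the first committed enzyme of the pathway, went from 83.8 and 68.5 to 1310 and 1456 TPM in H2023, and its responses differed by -3.47 (SE 0.37, limma, adjusted p = 0.00747). Of the 20 cholesterol synthesis enzymes 17 were called higher in H2023, with a median log2 difference of 2.69, and 15 differed between the lines, all with the smaller response in A549, against 1 without either A549 normal-culture library and 5 without oncosphere replicate 1. PRDM16, a transcription factor of brown fat and of several stem cells, was at 0.54 and 0.46 TPM and then 0.17 and 0.07 TPM in A549, and at 0.48 and 0.08 TPM and then 12.03 and 16.4 TPM in H2023. GDF15, a stress-induced cytokine, went from 97.3 and 115 to 80.6 and 45.2 TPM in A549 and from 61.6 and 26.6 to 216 and 247 TPM in H2023. AP1M2, an epithelial sorting adaptor, went from 44.2 and 41.6 to 16.2 and 33.0 TPM in A549 and from 65.5 and 58.6 to 219 and 233 TPM in H2023. Without A549 normal-culture replicate 1 the differences for GDF15 and AP1M2 had adjusted p-values of 0.0671 and 0.0567.

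**Figure D5:**
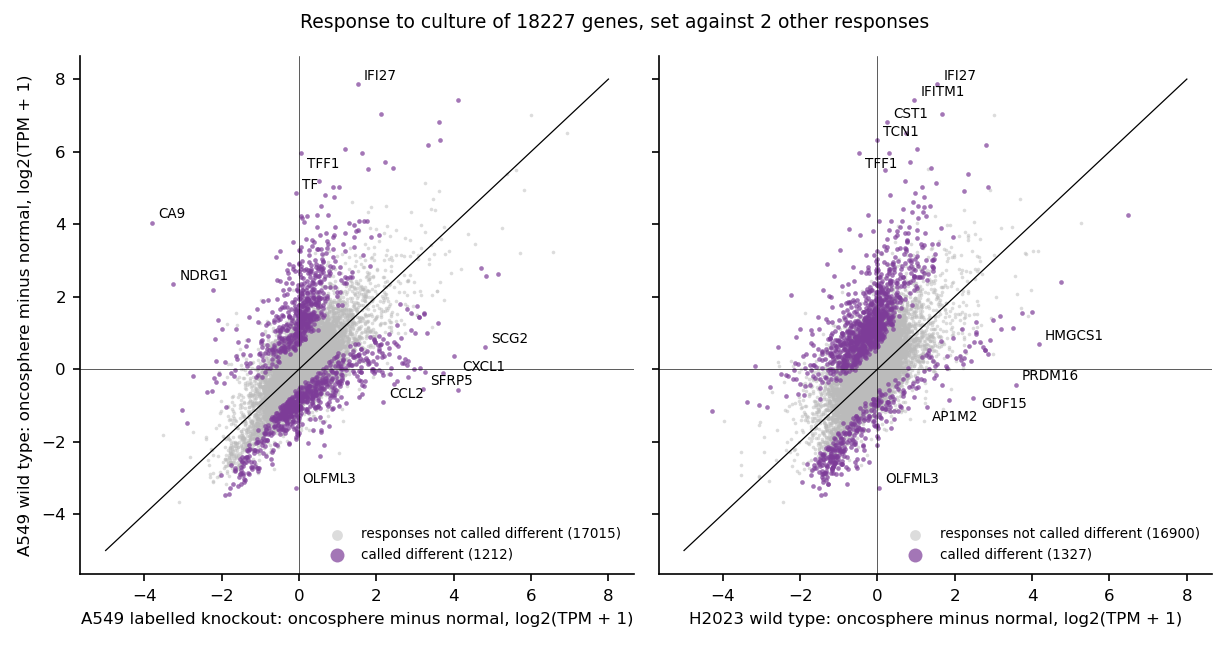
Log2 difference, oncosphere minus normal culture, of each gene in wild-type A549 cells (vertical axis) against the A549 clone labelled knockout (left) and wild-type H2023 cells (right). Purple points are genes whose responses were called different (1212 on the left, 1327 on the right), and CA9 and NDRG1 lie above 0 in wild type and below 0 in the clone.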

How the data were processed

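RNA was measured by sequencing of stranded mRNA libraries, per the labels' protocols. The authors deposited TPM per gene and library, with A549 and H2023 cells and the 2 cultures in separate tables, and the submitters' processing notes name HISAT2, StringTie and GRCh38, with versions and roles not given in the sources used here. That the values are TPM was taken from the column names and from sums between 991838 and 998125 per library. The deposited mean per gene is a normalized signal and served only as a check of scale. Read counts were not used, so depth is unknown and no counting interval is given. Strand use in counting is not given in the sources used here.

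Tables were joined by Ensembl ID into 18227 genes, the first row being kept for 119 repeated IDs. TPM values are scaled within each library, and comparisons between cultures cross tables. limma 3.58.1 in R 4.3.3, with its mean-variance trend, was fitted to log2(TPM + 1) of the deposited TPM. The fit held 8 A549 libraries in 4 groups for the culture contrasts of wild type and labelled knockout and their difference. It held 8 wild-type libraries for the difference from H2023. Culture calls within H2023 came from a separate fit over 8 H2023 libraries, including those of the clone labelled knockout. P-values are Benjamini-Hochberg adjusted over all genes. All fold and log2 values are on this scale, computed here from the deposited TPM, and they understate changes of low genes. The fits were tested on simulated data with known answers, drawn gene by gene without a batch. Of 100 genes with a log2 change of 1, the wild-type culture contrast recovered 89. The difference from the clone recovered 59 and that from H2023 recovered 44. At a log2 change of 2 these numbers were 99, 95 and 93. False calls numbered 7, 6 and 8.

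Some genes that the rule names are not reported here. Named genes were the 12 largest rises and falls among called genes of at least 5 TPM in the higher group without overlap, up to 3 called members per group with the largest change, members that define a group, the 5 most positive and most negative differences between responses, and ZC3H12A. AGR2, ANKRD1, EGLN3 and MTAP were named after their values were seen. The members, gene lists and defining genes were chosen with earlier results of these data known. Alternatives changed the libraries in the fit, the pseudocount, a filter on low values, the scaling, the trend and the replicate block, and left out each wild-type A549 library in turn.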

Additional observations from a re-analysis of the deposited data

Results flagged for a closer look

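The culture response of wild-type A549 cells differed from that of the A549 clone labelled knockout for 1212 genes, by limma's test of the difference between the responses. The differences that were more positive in wild type, on the log2(TPM + 1) scale, were 7.85 for CA9, 6.35 for IFI27, 5.91 for TFF1, 5.59 for NDRG1 and 4.95 for TF. Those more negative in wild type were -4.20 for SCG2, -3.76 for SFRP5, -3.64 for CXCL1, -3.18 for OLFML3 and -3.09 for CCL2. Without normal-culture replicate 1 the differences for IFI27, CXCL1 and OLFML3 had adjusted p-values of 0.119, 0.08 and 0.0898.

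The response differed from that of wild-type H2023 cells for 1327 genes by the same kind of test. Differences more positive in A549 were 6.57 for CST1, 6.46 for IFITM1, 6.44 for TFF1, 6.34 for TCN1 and 6.32 for IFI27. Those more negative in A549 were -3.99 for PRDM16, -3.47 for HMGCS1, -3.29 for OLFML3, -3.28 for GDF15 and -2.71 for AP1M2. OLFML3 was at or near 0 in all 4 H2023 libraries. It had an adjusted p of 0.0544 without oncosphere replicate 1, and IFI27 had 0.0555 without normal-culture replicate 1.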

How the results depend on the processing

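The count of genes called between the cultures was 7392, from 6261 to 7592 over the settings that kept all 4 libraries, and from 4924 to 6105 with a wild-type A549 library left out. Of 690 list genes 414 were called, against 40.6% of all genes, and fewer list genes were called with any wild-type A549 library left out. The differences from the labelled knockout (1212) ranged from 170 to 971 and those from H2023 (1327) from 176 to 997 with a library left out, and the latter rose to 2574 with all 16 libraries in the fit. Of 192 called named genes 154 kept their call without normal-culture replicate 1, 175 without normal-culture replicate 2, 160 without oncosphere replicate 1 and 168 without oncosphere replicate 2, and none changed sign under any setting. A group left with 1 library is assumed to vary like the others. The labels do not say whether libraries with the same replicate number were prepared together. The correlation of same-numbered deviations was 0.114 in wild-type A549 cells, 0.098 in the A549 clone and 0.149 in wild-type H2023 cells. Replicate 2 had the higher mitochondrial share in every group. A batch that follows the number was not tested beyond the replicate block. With that block 7592, 1264 and 1308 genes were called in the 3 tests. With 2 libraries per group precision is limited by their number, and read depth is unknown.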

Other observations

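Among the most abundant transcripts, NTS, which encodes the secreted peptide neurotensin, was at 319.5 and 582 TPM in normal culture and at 4469 and 3730 TPM in oncosphere culture of wild-type A549 cells. The groups did not overlap.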
